A study of Rattus norvegicus with 24 samples.

Results

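The 9 genes described here encode kinases that drive cell division and proteins that work with them: Cdk1, Aurka, Aurkc, Plk1, Bub1b, Pbk, Pttg1, Prc1 and Cdca8. They were chosen by name, in view of their higher level in round spermatids of aged rats, from 14217 genes with a probe set that carries exactly 1 gene symbol. Each has 1 such probe set, so all 9 are accounted for and every level below is that of 1 probe set. In RefSeq's assembly GRCr8, Aurkc, Plk1 and Prc1 lie on chromosome 1, Aurka and Bub1b on chromosome 3, Cdca8 on chromosome 5, Pttg1 on chromosome 10, Pbk on chromosome 15 and Cdk1 on chromosome 20. The 24 Affymetrix arrays, 1 per fraction of a rat, form 4 groups of 6: pachytene spermatocytes of aged rats (18 months), pachytene spermatocytes of young rats (4 months), round spermatids of aged rats and round spermatids of young rats. All 12 rats were Brown Norway, and a number in the titles ties the 2 fractions of each rat. Testes were digested with collagenase and trypsin, and the fractions were separated by sedimentation to a stated purity above 83%.

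The division kinases act in a fixed order. Cdk1, with a cyclin, starts the division phase of mitosis and meiosis; Aurora A (Aurka) and Polo-like kinase 1 (Plk1) promote entry and build the spindle; Bub1b delays anaphase until chromosomes are attached; and the separase inhibitor securin (Pttg1) is then destroyed so that sister chromatids can part. Borealin (Cdca8) is a subunit of the chromosomal passenger complex, whose kinase in meiosis can be Aurora C (Aurkc), a germ cell member of the Aurora family. Prc1 bundles microtubules of the central spindle before the cell is cut apart, and Pbk is a mitotic kinase that is abundant in testis. In the testis, pachytene spermatocytes stand before the meiotic divisions, and the haploid round spermatids come after them and do not divide again.

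Many genes of this kind share 2 short promoter motifs in mammals: the cell cycle genes homology region, TTTGAA, which a repressor complex reads in cells that do not divide, and the CCAAT box, the site of NF-Y. Both were searched on both strands in RefSeq promoters of assembly GRCr8, from 250 bases before to 50 after each start site, which were given for 8 of the 9 genes (Pbk was not among them). TTTGAA was found in 6 of the 8, against 18.3% of 33469 promoters, CCAAT also in 6 of the 8, against 37.5%, and both in 5 of the 8, against 7.41%. Bub1b held TTTGAA alone, Aurkc CCAAT alone and Aurka neither. The window of Aurka lies inside the annotated gene, at another start than its outer end. A match is a description of letters and not a site. The sequences below, 5′ to 3′ with the matches of either strand in capitals, show 4 genes with both motifs and Aurkc, which has CCAAT alone. In Cdca8 a TTTGAA and a CCAAT match of the other strand overlap.
Cdk1, chr20:19265043-19265342, plus strand: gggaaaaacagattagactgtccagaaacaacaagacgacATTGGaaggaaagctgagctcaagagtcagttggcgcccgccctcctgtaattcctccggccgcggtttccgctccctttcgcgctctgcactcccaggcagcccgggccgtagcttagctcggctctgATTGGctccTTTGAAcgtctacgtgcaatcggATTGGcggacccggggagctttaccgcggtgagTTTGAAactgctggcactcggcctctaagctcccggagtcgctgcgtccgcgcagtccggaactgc
Plk1, chr1:186147408-186147707, plus strand: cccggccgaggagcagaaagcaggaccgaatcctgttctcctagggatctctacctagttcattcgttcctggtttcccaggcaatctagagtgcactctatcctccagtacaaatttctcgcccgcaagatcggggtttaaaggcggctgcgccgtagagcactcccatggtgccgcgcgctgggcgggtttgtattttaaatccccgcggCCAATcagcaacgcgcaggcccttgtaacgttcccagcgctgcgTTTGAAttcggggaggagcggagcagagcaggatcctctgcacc
Pttg1, chr10:28406277-28406576, minus strand: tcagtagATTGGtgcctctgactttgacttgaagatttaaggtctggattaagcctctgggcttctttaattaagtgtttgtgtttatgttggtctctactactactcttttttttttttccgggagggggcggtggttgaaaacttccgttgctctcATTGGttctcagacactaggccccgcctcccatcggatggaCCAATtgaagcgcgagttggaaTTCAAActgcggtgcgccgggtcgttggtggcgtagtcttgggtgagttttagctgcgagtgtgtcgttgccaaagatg
Cdca8, chr5:142483150-142483449, minus strand: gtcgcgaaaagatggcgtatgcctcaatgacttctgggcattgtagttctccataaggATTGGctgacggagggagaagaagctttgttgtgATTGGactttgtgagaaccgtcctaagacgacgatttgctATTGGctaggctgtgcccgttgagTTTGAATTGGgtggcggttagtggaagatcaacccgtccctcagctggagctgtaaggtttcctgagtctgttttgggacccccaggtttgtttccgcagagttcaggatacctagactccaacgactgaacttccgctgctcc
Aurkc, chr1:75882844-75883143, minus strand: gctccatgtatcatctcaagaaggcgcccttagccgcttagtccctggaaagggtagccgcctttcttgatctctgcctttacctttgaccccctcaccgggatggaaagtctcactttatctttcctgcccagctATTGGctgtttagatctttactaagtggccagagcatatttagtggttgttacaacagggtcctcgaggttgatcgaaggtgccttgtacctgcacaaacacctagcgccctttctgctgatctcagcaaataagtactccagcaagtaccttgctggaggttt
In the Cdk1 promoter the TTTGAA matches begin at -72 and -16 from the start site, and in that of Plk1 the single match begins at 7, within the transcript. Cdca8 has a match on the same strand as the gene at -94, and Pttg1 one on the opposite strand at -29.

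Some facts of the arrays touch the values. The absent control (3 probe sets) averaged 4.19 in aged and 4.38 in young pachytene arrays and 6.90 in aged and 6.77 in young round spermatid arrays, on the deposited log2 scale. Ages were therefore compared within a fraction (quantile normalized, called the fraction scale), and fractions only after an offset that matched the spike-in controls (the common scale); for dim probe sets, cell type and array background cannot be told apart. In young pachytene spermatocytes, the arrays of rats 1, 10 and 11 lay away from the others along the first principal component, as did array 10 of the young round spermatids. The 100 genes with the largest excess in round spermatids, used as spermatid tracers and led by Fscn3, Tex46 and Ica1, averaged 10.3 to 11.2 in those 3 pachytene arrays, against 9.17 to 9.47 in the other young ones. In bulk samples, a change in the share of a cell type and a change in RNA per cell cannot be told apart. The pachytene fraction carried markers of its label. Sycp3, a rod protein of the synaptonemal complex, was 2.52-fold higher in pachytene spermatocytes than in round spermatids, and Mybl1, a transcription factor of pachytene cells, 8.34-fold. The other measured pachytene markers ran from 1.21-fold (Hspa2) to 7.46-fold (Tdrd1). Most Sertoli cell markers were higher in that fraction too, among them Clu at 8.65-fold and Cldn11 at 7.76-fold, while Amh was 1.05-fold lower.

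**Figure D1:**
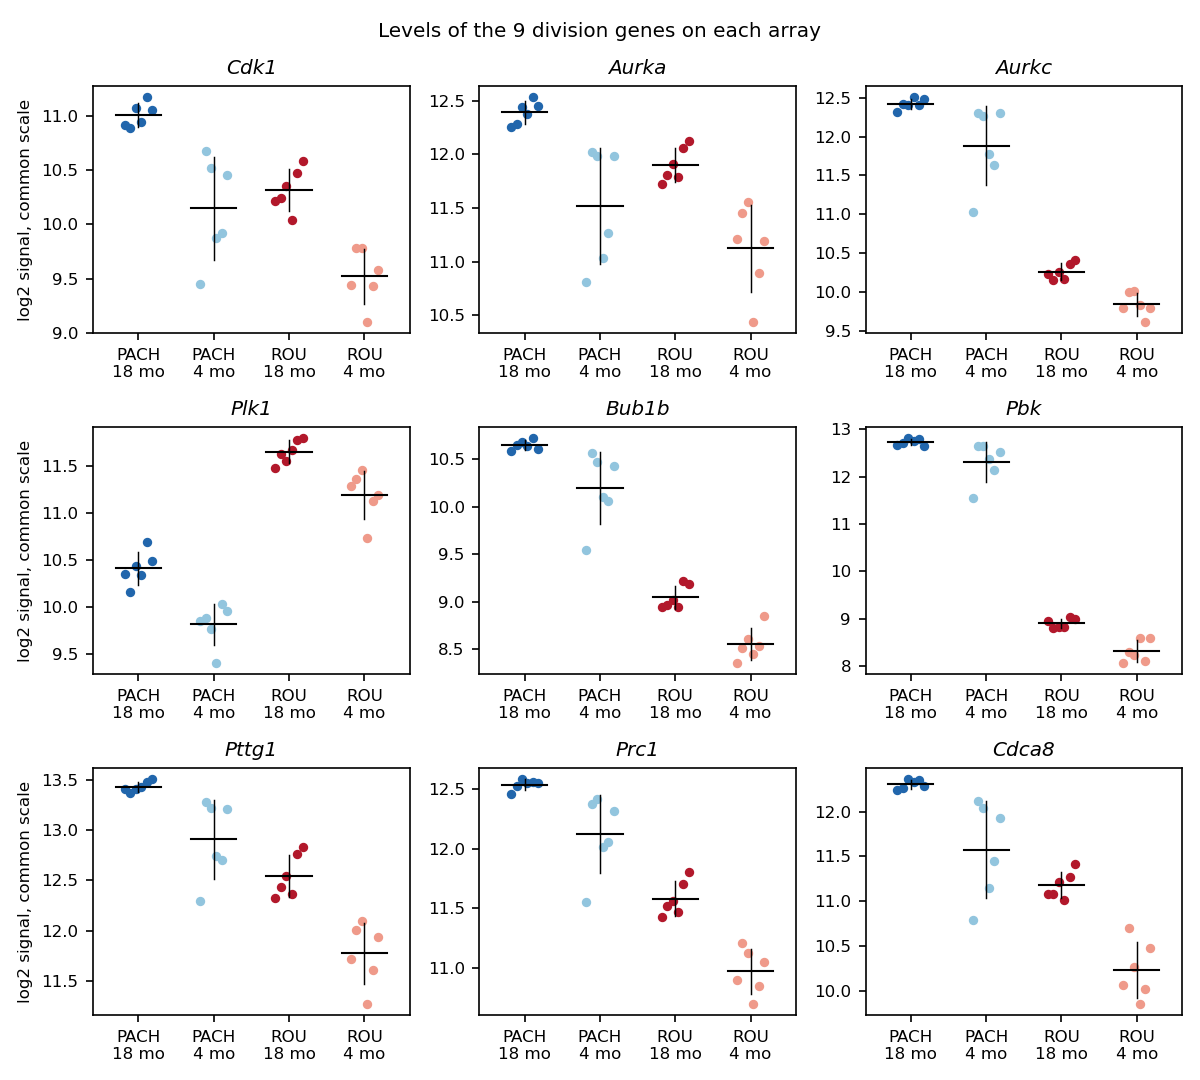
Log2 signal on the common scale (vertical axis) of each division gene on each of the 24 arrays, by fraction and age; points are arrays, long bars means and thin vertical bars SD (n = 6 per group). The aged arrays of either fraction sit above the young ones for each gene, and Plk1 is the gene whose round spermatid arrays sit above its pachytene arrays.

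All of the 9 genes but Plk1 were higher in pachytene spermatocytes than in round spermatids. On the common scale, averaged over both ages, 8 of the 9 were higher in pachytene spermatocytes and 1 was higher in round spermatids (limma, adjusted p over all 31042 probe sets), where 38.2% of all probe sets were called higher in pachytene spermatocytes and 46.9% lower. Pbk showed the widest step, with means of 12.74 and 12.32 in aged and young pachytene spermatocytes, against 8.90 and 8.31 in aged and young round spermatids. This is a difference of 3.92 ± 0.10 (SE), or 15.1-fold, with adjusted p = 2.9e-20 in limma. Aurkc was 4.28-fold higher in pachytene spermatocytes and Bub1b 3.09-fold, with log2 differences of 2.10 and 1.63. Cdca8 (2.36-fold), Prc1 (2.08-fold) and Pttg1 (2.02-fold) differed by about 1 on the log2 scale. The smallest steps were those of Cdk1, 1.58-fold with adjusted p = 1.2e-05, and Aurka, 1.36-fold with adjusted p = 0.0050 (limma). Plk1 went the other way, with means of 10.41 and 9.82 in aged and young pachytene spermatocytes and 11.65 and 11.19 in aged and young round spermatids, a difference of -1.31 ± 0.08 (2.48-fold, adjusted p = 1.9e-13 in limma). None of these 9 calls was lost without any single rat.

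In round spermatids the rise with age chose these genes, so its values are a description and carry no test. Across the 9 genes the log2 rise ran between 0.43 and 1.06, with a median of 0.69, while the median over all genes was 0.00. Rises past the limma threshold were more common among genes with a pachytene excess. Of 1184 genes higher in pachytene spermatocytes by 1 to 2 (log2), 31.2% rose and 127 fell, and 12.4% of all genes rose. With an excess of 2 to 3, over 3 and 0 to 1, 28.9%, 30.6% and 17.5% rose. Within bins of like difference between fractions, the rise of Pbk was above that of 83.3% of genes, Aurkc 90.4% and Bub1b 90.5%. The others ran from 98.5% (Prc1) to 99.9% (Aurka). In 9 of 9 genes every aged array lay above every young one; among all probe sets this holds for 4.3%, and 8.6% passed the limma threshold upward. On the fraction scale, Cdk1 had a lowest, median and highest level of 9.77, 10.04 and 10.37 in aged round spermatids, against 8.80, 9.21 and 9.49 in young ones. Its rise was 0.85 ± 0.12 (SE), or 1.80-fold. Aurka ran from 11.66 through a median of 11.82 to 12.11 in aged round spermatids, against 10.20, 11.07 and 11.46 in young ones, a rise of 0.89 ± 0.17. The lowest young array in both genes was that of rat 10, the one that stood apart.

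Aurkc rose less, with a lowest, median and highest level of 9.88, 9.99 and 10.17 in aged round spermatids, against 9.32, 9.52 and 9.73 in young ones (0.46 ± 0.07). Plk1, the gene that is higher in spermatids, had 11.38, 11.57 and 11.74 in aged and 10.54, 11.11 and 11.36 in young ones (0.52 ± 0.11). For Plk1 the lowest aged array cleared the highest young one by a narrow gap. Bub1b, the checkpoint kinase, gave 8.65, 8.70 and 8.91 in aged round spermatids, against 8.17, 8.30 and 8.57 in young ones (0.43 ± 0.07). Pbk gave 8.54, 8.61 and 8.73 in aged round spermatids, against 7.96, 8.10 and 8.36 in young ones (0.48 ± 0.07).

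Among the partners, Cdca8 showed the widest rise of the 9. Its lowest, median and highest levels were 10.85, 10.9996 and 11.30 in aged round spermatids, against 9.56, 9.90 and 10.50 in young ones, or 1.06 ± 0.14 (2.09-fold). Pttg1, the securin gene, had 12.34, 12.53 and 12.89 in aged round spermatids, against 11.14, 11.77 and 12.08 in young ones (0.87 ± 0.15). Prc1 had 11.32, 11.45 and 11.75 in aged round spermatids, against 10.50, 10.80 and 11.07 in young ones (0.69 ± 0.10). Without the young rats 1, 10 and 11 the rises of the 9 genes ran between 0.35 and 0.79.

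**Figure D2:**
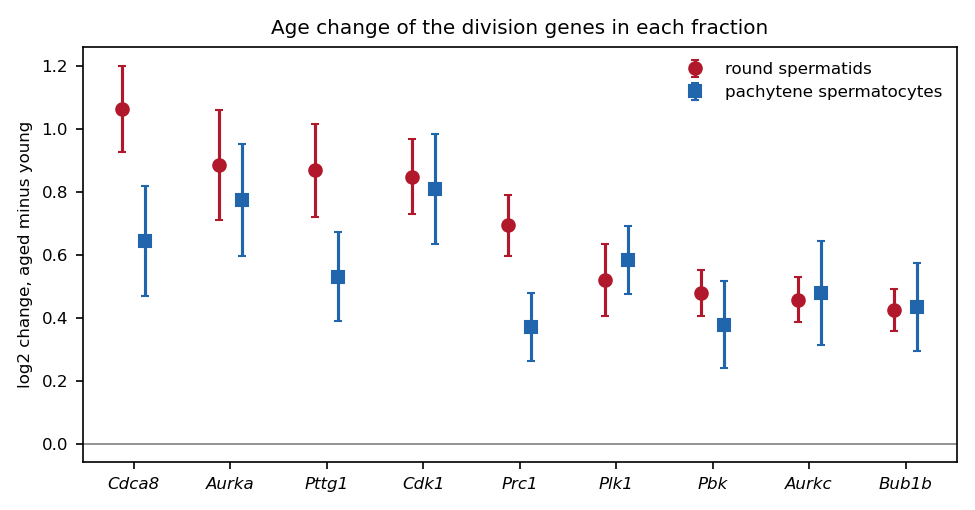
Log2 change with age, aged minus young, of each gene in round spermatids (circles) and pachytene spermatocytes (squares) on the fraction scale; bars are SE (n = 6 per group). All changes are above 0, between 0.43 and 1.06 in round spermatids and between 0.37 and 0.81 in pachytene spermatocytes.

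In pachytene spermatocytes, which the stated choice of the genes did not name, all 9 also rose with age. The choice was made with earlier results of these data known, and both fractions come from the same rats. These rises are therefore not an independent check. Each of the 9 passed the limma threshold, where 22.1% of all probe sets and 25.6% of all genes were called higher. In each gene every aged array lay above every young one, as in 12.9% of all probe sets. That gap was narrow in places: for Pbk the lowest aged array was at 12.576 and the highest young one at 12.573, and on the deposited scale the groups overlapped in Aurkc, Bub1b, Pbk and Prc1. The median log2 change was 0.53, against 0.05 over all genes. Cdk1 had a lowest, median and highest level of 10.999, 11.10 and 11.26 in aged pachytene spermatocytes, against 9.59, 10.35 and 10.81 in young ones, a rise of 0.81 ± 0.17 (adjusted p = 0.0043 in limma). Aurka rose by 0.77 ± 0.18, with 12.22, 12.36 and 12.47 in aged and 10.94, 11.67 and 12.01 in young cells (adjusted p = 0.0061). Plk1 rose by 0.58 ± 0.11, with 10.33, 10.55 and 10.82 in aged and 9.55, 10.05 and 10.20 in young cells (adjusted p = 0.0019 in limma). Cdca8 rose by 0.64 ± 0.18 (adjusted p = 0.013), Pttg1 by 0.53 ± 0.14 (adjusted p = 0.012) and Prc1 by 0.37 ± 0.11 (adjusted p = 0.019) in limma. The changes closest to the threshold were 0.48 ± 0.17 for Aurkc (adjusted p = 0.037), 0.43 ± 0.14 for Bub1b (adjusted p = 0.028) and 0.38 ± 0.14 for Pbk (adjusted p = 0.047) in limma.

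These pachytene values rest in part on the young arrays 1, 10 and 11, and without them the 9 changes ran between 0.12 and 0.54. The calls of Aurkc (0.12, adjusted p = 0.092) and Pbk (0.12, adjusted p = 0.13) were then lost in limma, and Cdk1, Aurka, Bub1b, Pttg1, Prc1 and Cdca8 moved to 0.43, 0.35, 0.15, 0.21, 0.15 and 0.24, while Plk1 stood at 0.54. Leaving out single rats kept between 6 and 9 of the calls. Aurkc was lost without young rat 10 or 11 or aged rat 3, 5, 8, 9 or 10. Bub1b was lost without young rat 10 or 11 or aged rat 5 or 9, and Pbk without young rat 10 or 11 or aged rat 2, 3, 5, 8, 9 or 10. The spermatid tracers moved with age in this fraction, with a mean of 9.03 (range 8.84 to 9.46) in aged and 10.01 (range 9.17 to 11.2) in young pachytene spermatocytes, and 83 of the 100 fell. With their mean as a covariate, Cdk1 kept 0.29 (adjusted p = 0.042 in limma) and Plk1 0.56 (adjusted p = 0.027), while the other 7 changes ran between -0.024 and 0.25 and lost their calls (3.27% of all probe sets were then called higher).

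The age change in round spermatids minus that in pachytene spermatocytes exceeded its SE for Pttg1 and Prc1 and not for the other genes. On the common scale it was 0.25 ± 0.21 (SE) for Pttg1, 0.22 ± 0.25 for Cdca8, 0.20 ± 0.16 for Prc1, 0.17 ± 0.19 for Pbk and 0.04 ± 0.17 for Bub1b. It was -0.06 ± 0.23 for Cdk1, -0.09 ± 0.27 for Aurka, -0.12 ± 0.21 for Aurkc and -0.14 ± 0.16 for Plk1. Because this difference holds the contrast that chose the genes, it is given without a test; 5.97% of all probe sets were called higher and 7.09% lower.

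Whether the rises in aged round spermatids went with other pachytene transcripts was examined with the 100 genes of the largest pachytene excess that are on no division list, called pachytene tracers. They were led by Gmcl1, Sprtn, B3galnt1, Tgfa and Ccne2, of which Gmcl1 was 19.1-fold higher in pachytene spermatocytes than in round spermatids. Their mean level in round spermatids was 8.80 ± 0.06 (SD, n = 6; range 8.73 to 8.90) in aged and 8.79 ± 0.14 (range 8.66 to 8.99) in young ones. The groups overlapped. That mean joined changes of both signs: of the 100 tracers 34 rose, 19 fell and 47 did not pass the test, where 12.4% of all genes rose and 12.5% fell. The median change was 0.065, and 14 tracers rose by 0.43 or more, the lowest value among the 9 division genes. Tmed4 and Fam221a, which rose most, were each at 0.92, and Usp32 was at 0.87; these were singled out after their values were seen. The 5 leading tracers changed by between -0.16 and 0.20 and none of them passed the threshold (limma, adjusted p between 0.34 and 0.92). The next 100 genes in rank gave 8.71 ± 0.03 in aged and 8.68 ± 0.11 in young round spermatids, with 29 up and 19 down.

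Of the 19 tracers that fell in aged round spermatids, 18 also fell in pachytene spermatocytes, and 4 of these are Sertoli cell markers on the list (Clu, Aard, Cst12 and Cldn11). The other 14, among them Aqp8, Gatm and Serpina5, are on no list used here, and their source was not tested. Split by their age change in pachytene spermatocytes, a division made after the values were seen and given with no test, the 25 tracers that fell there averaged 8.30 in aged and 8.95 in young round spermatids. The 75 that did not fall there averaged 8.97 (range 8.89 to 9.09) in aged and 8.74 (range 8.58 to 8.99) in young round spermatids, with a median change of 0.19, 34 up and 1 down. Of 12 Sertoli markers on the list 9 were measured; 6 fell and none rose in aged round spermatids, and their mean was 8.22 (range 8.04 to 8.42) in aged and 8.80 (range 8.56 to 9.07) in young round spermatids, so the groups did not overlap. In pachytene spermatocytes 8 of the 9 fell, with ranges of 9.61 to 10.04 in aged and 10.52 to 11.18 in young ones. With the Sertoli mean as a covariate in pachytene spermatocytes none of the 9 division genes kept its call: Plk1 stood at 0.45 and the others between -0.40 and -0.068 (limma, adjusted p between 0.74 and 0.97), and 0 probe sets were called in all. A log2 scale has no 0 level. Amh, a Sertoli gene of the immature testis rather than of 4-month rats, stood at 7.66 in aged and 7.68 in young round spermatids. With the 4 listed markers replaced by the next in rank, the tracer mean was 8.77 ± 0.06 in aged and 8.71 ± 0.14 in young round spermatids, with 35 up and 16 down; 15 of these 16 fell in pachytene spermatocytes too. Named pachytene genes gave a larger step than the tracers. The 7 measured of 16 listed had a mean of 10.61 ± 0.09 in aged and 10.35 ± 0.18 in young round spermatids, and 2 of them rose: Mybl1 by 0.77 (adjusted p = 0.0050) and Sycp3 by 0.43 (adjusted p = 0.013) in limma. The other 5 were Sycp1 at -0.12, Piwil2 at 0.08, Sycp2 at 0.19, Hspa2 at 0.24 and Tdrd1 at 0.28, and did not pass. Mybl1 and Tdrd1 are among the 100 tracers too.

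**Figure D3:**
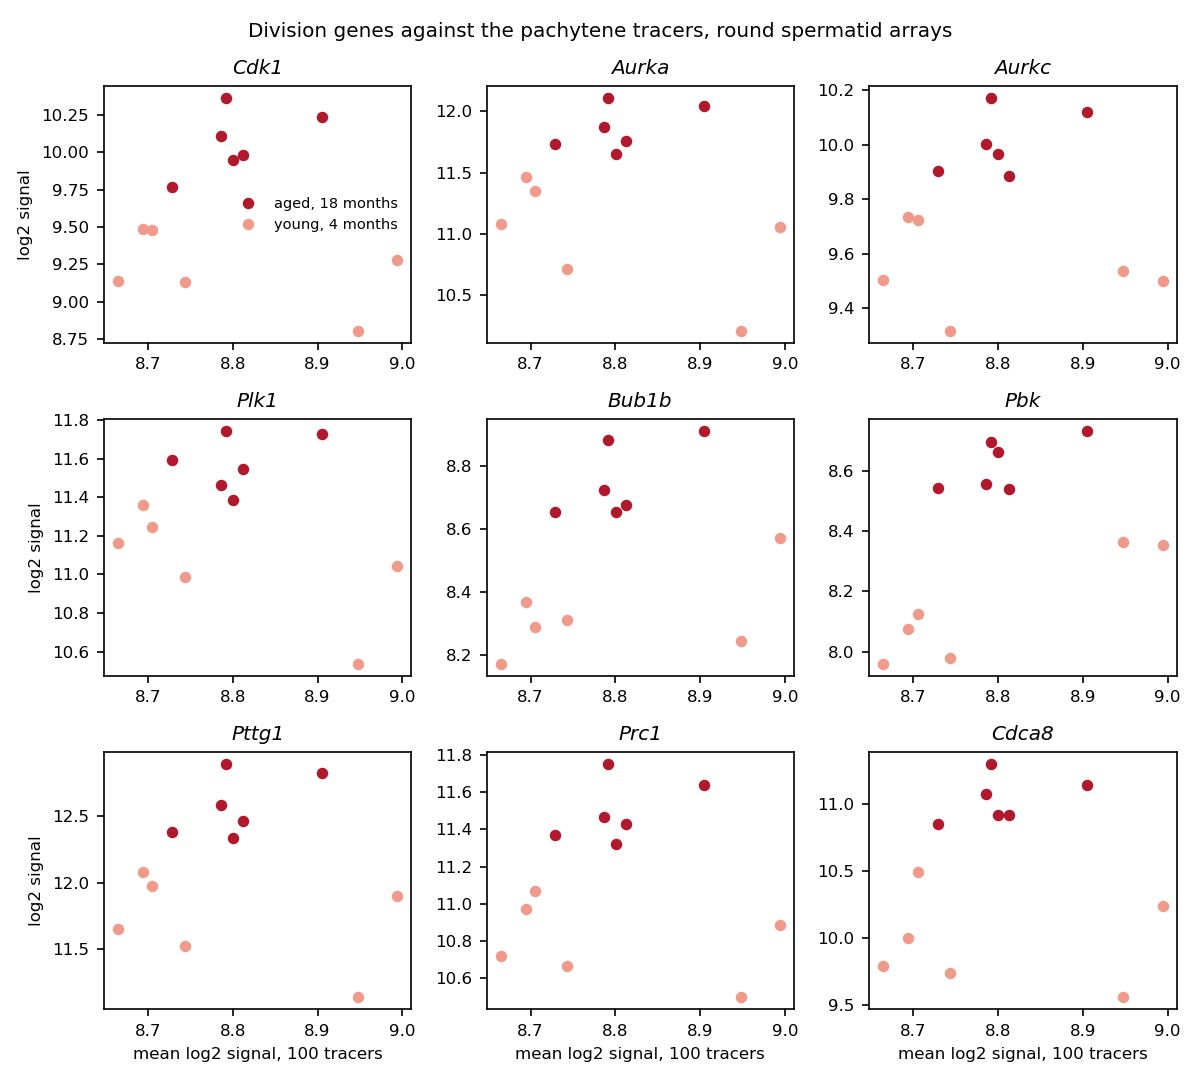
Log2 signal of each gene (vertical axis) against the mean log2 signal of the 100 pachytene tracers (horizontal axis) on the 12 round spermatid arrays, fraction scale; dark points are aged rats, light points young rats. The aged points lie above the young ones for each gene. The genes were chosen by that rise, so the height of the points says nothing about the tracers. Tracer levels run between 8.73 and 8.90 in aged and between 8.66 and 8.99 in young arrays.

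Within an age, the level of a division gene and the tracer mean were compared over 6 arrays, with an exact two-sided permutation test over 720 pairings (smallest p 0.0014 for Pearson's r and 0.0028 for Spearman's rho) and adjustment over 18 relations per list. In aged round spermatids r was positive in 9 of 9 genes, between 0.35 for Plk1 and 0.67 for Pbk, with a median of 0.49. Over all genes the median was 0.00, and 49.9% were positive. None passed, with adjusted exact p of 0.56 to 0.58. Spearman's rho lay between 0.09 and 0.37, with adjusted exact p of 0.81 to 0.92. Without the 2 arrays farthest from the median tracer level r turned negative in all 9 (median -0.51), so the positive values rest on those arrays. With the 4 listed Sertoli markers replaced in the tracers, the same omission left r between -0.21 for Pbk, the only negative one, and 0.76 for Plk1. The median was 0.21 without aged rat 9, 0.34 without rat 8 and 0.79 without rat 10.

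In young round spermatids the sign was mixed. The median r was -0.35, the lowest was -0.68 for Plk1, and 2 of 9 genes were positive, against 52.2% of all genes. Without young rat 10 the median over the 9 genes was 0.051. Bub1b gave r = 0.58, and Pbk gave r = 0.92 (exact permutation p = 0.031, adjusted 0.55; rho = 0.77, exact p = 0.10). For Pbk r was 0.07 without the arrays of rats 10 and 13, the 2 with the highest tracer levels, so its value rests on them. The 4 lowest tracer arrays of Pbk ran between 7.96 and 8.12, and the arrays of rats 10 and 13 were at 8.36 and 8.36.

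Against the 7 named pachytene markers, r was positive in all 9 genes at both ages. The medians were 0.80 in aged and 0.51 in young round spermatids. Of all genes, 49.4% in aged and 49.7% in young round spermatids had a positive r with these markers. The 9 genes move together within a group, so these are not 9 separate relations. No Pearson relation passed the adjustment over its 18 relations (smallest adjusted exact permutation p = 0.14). The closest were Pttg1 and Aurka in aged rats, both with r = 0.87, and Bub1b in young rats, with r = 0.96. By rank, Bub1b followed the markers in the same order on all 6 aged arrays (rho = 1, exact p = 0.0028, adjusted 0.05). Plk1 was nearest to a reverse relation with the spermatid tracers, at r = -0.99 in aged and -0.99 in young round spermatids (each exact permutation p = 0.0028, adjusted 0.025), and Aurka gave -0.96 in young ones (adjusted exact p = 0.042). The medians over the 9 genes were -0.78 in aged and -0.84 in young round spermatids, where Pbk was positive at 0.62. Over all genes the quartiles of this r were -0.55 and 0.53 in aged and -0.63 and 0.68 in young round spermatids. The spermatid tracers themselves were lower in aged than in young round spermatids (11.87 ± 0.13 against 12.25 ± 0.20), and 74 of the 100 fell.

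The list with which the most of the 9 genes passed was that of the 9 Sertoli markers, in young round spermatids. There r was -0.98 for Aurka, -0.98 for Pttg1, -0.96 for Cdk1 and -0.94 for Plk1 (exact permutation, adjusted p = 0.0125 each) and -0.92 for Prc1 (adjusted exact p = 0.045). Spearman's rho was -1 for Cdk1 and Pttg1 (adjusted exact p = 0.025 each). Cdca8 (-0.71), Aurkc (-0.67), Bub1b (-0.33) and Pbk (0.31) did not pass. Over all genes, r with these markers in young round spermatids had quartiles of -0.58 and 0.64, and 14.5% of genes lay above 0.8. A strong r was thus common on these arrays. The permutation test was not run over all genes, so the count that passed has no share to be set against. Without the arrays of rats 3 and 10, the 2 farthest from the median marker level, r of the 5 that passed lay between -0.98 and -0.80. In aged round spermatids r ran between -0.66 and 0.10, none passed (adjusted exact p of 0.32 to 0.86), and without rats 2 and 10 all 9 were positive. Over all 108 relations with 6 lists the smallest adjusted exact p was 0.05, reached by Plk1 with the spermatid tracers at both ages and by Cdk1, Aurka, Plk1 and Pttg1 with the Sertoli markers in young rats.

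**Figure D4:**
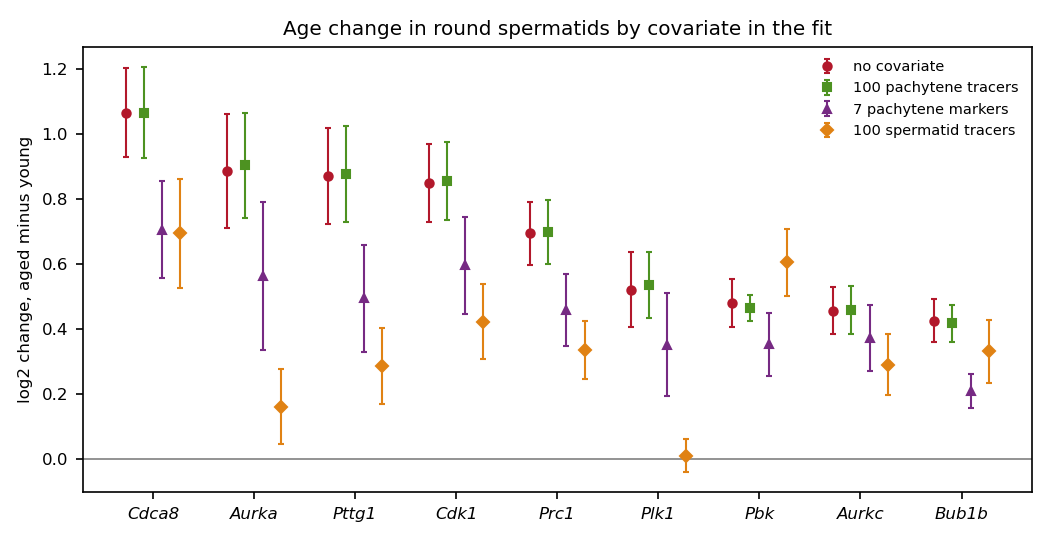
Log2 change with age in round spermatids, aged minus young, of each gene with no covariate and with the mean of 100 pachytene tracers, 7 pachytene markers or 100 spermatid tracers in the fit; bars are SE (12 arrays). With the pachytene tracers the values stay between 0.42 and 1.06, and with the spermatid tracers Plk1 comes to 0.01 and Pbk to 0.60.

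The age change was also fitted with each list's mean as a covariate, again without a test for these genes. With the pachytene tracers the changes were 97.0% to 102.5% of those without them, and with the 4 listed Sertoli markers replaced 86.5% (Pbk) to 110.0% (Plk1). With the next 100 genes in rank they were 91.7% to 107.9%. The means of these 3 lists differ little between the ages, as given above, so as covariates they could take little from an age change, and shares near 100% say nothing about the genes. The named pachytene markers took more, leaving 49.1% for Bub1b, 56.8% for Pttg1 and up to 81.5% for Aurkc. The mean of these markers was itself higher in aged round spermatids (10.61 against 10.35). These shares can therefore not be split between the markers and age. With this covariate the changes stood above those of 94.7% (Bub1b) to 99.94% (Cdca8) of all genes. Without it they stood above 97.6% (Bub1b) to 99.96% (Cdca8). With the spermatid tracers the share left was 2.17% for Plk1, 18.2% for Aurka, 32.8% for Pttg1, 48.2% for Prc1 and 49.8% for Cdk1. It was 63.7% for Aurkc, 65.2% for Cdca8, 78.1% for Bub1b and 126.1% for Pbk. The spermatid tracer mean ran between 11.73 and 12.07 in aged and between 12.02 and 12.60 in young round spermatids. Those ranges barely overlap, so this covariate is hard to tell apart from age, and the differences between genes in these shares are a description. With it 18 probe sets were called in round spermatids, and 1 with the pachytene markers, against 5320 with no covariate. With the Sertoli markers the share ran from -38.3% for Plk1 to 127.0% for Pbk and was below 0 in Plk1, Aurka and Pttg1. Since the Sertoli marker ranges do not overlap between the ages, that covariate and age cannot be told apart.

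**Figure D5:**
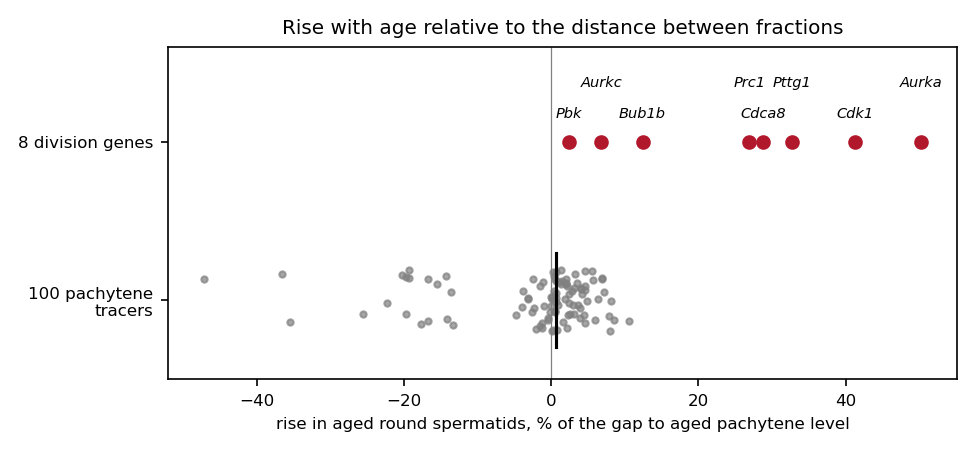
Rise in aged round spermatids as a percent of the distance between young round spermatids and aged pachytene spermatocytes (horizontal axis, linear signal, common scale) for 8 division genes (top) and the 100 pachytene tracers (bottom; vertical scatter has no meaning, bar at the median). The division genes lie between 2.43% and 50.2%, and the tracers, which were picked for a wide gap, have a median of 0.673% and a maximum of 10.5%.

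The rise can be set against the distance between the fractions, as the share of the linear gap between young round spermatids and aged pachytene spermatocytes that the aged round spermatids covered. Aurka covered 50.2% (a signal of 3850 in aged and 2304 in young round spermatids, with 5382 in aged pachytene spermatocytes) and Cdk1 41.2%. Pttg1 covered 32.7%, Cdca8 28.8% and Prc1 26.9%. Bub1b (12.4%), Aurkc (6.79%) and Pbk (2.43%), the genes with the widest steps between fractions, covered least. Plk1 has no such gap. The tracers had a median of 0.673%, with 62 of 100 above 0 and a highest value of 10.5%. Of the 100 tracers, 32 had a share above that of Pbk, 8 above that of Aurkc and 0 above that of Bub1b. The next 100 genes in rank had a median of 0.809% and a highest value of 14.6%. The tracers were picked for a wide gap, which is the denominator of this share, so their low shares follow in part from that choice and are not comparable with those of genes with a small gap. The shares of the 9 genes use the age contrast that chose them, and all are a description.

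Pairs of the 9 genes mostly had a positive r within a group. In aged round spermatids all 36 pairs were positive (median 0.90, lowest 0.48), and in young ones 31 of 36 (median 0.59, lowest -0.58; 6 arrays each). In aged pachytene spermatocytes 35 of 36 were positive (median 0.63, lowest -0.17), and in young ones also 35 (median 0.97, lowest -0.12), where 3 arrays stood apart. Over all pairs of all genes the medians lay between 0.0014 and 0.017, with 50.1% to 50.8% positive. Genes most like the mean of the 9 over all 24 arrays were Nuf2, which links kinetochores to microtubules, and Ccnk, Wars1, Med15 and Flcn, each with r = 0.99; over the 12 round spermatid arrays with age means removed they were Cdc42ep4 (0.99), Ciapin1 (0.98), Fyco1 (0.98), Orc5 (0.98) and Stk25 (0.97). These r values describe arrays that share their normalization and depth of signal. Those over 24 arrays also hold the steps between the groups, among them the age contrast that chose the 9 genes, and are a description. The 9 genes themselves had r between -0.43 and 0.99 on that measure, so the mean does not stand for each of them. With age means removed their r ran between 0.20 and 0.98.

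Other genes of the division machinery were read from a list of 85, of which 71 were measured. In round spermatids 25 rose and 3 fell with age in limma, and the list's median was 0.075. Of all genes, each by its brightest probe set, 12.4% rose and 12.5% fell. The 25 became 16 under median centring, 49 on the deposited scale and 10 without young rats 1, 10 and 11. By role, 9 of 18 spindle and cytokinesis genes rose and 1 fell, 6 of 17 of the anaphase promoting complex and separase rose and 2 fell, 4 of 10 spindle checkpoint genes, 3 of 12 of the passenger complex and centromere and 3 of 14 entry cyclins and regulators rose. Kif22, a chromosome motor, rose by 0.41 (adjusted p = 0.0024), Fzr1, an activator of the anaphase promoting complex, by 0.39 (0.0032) and Espl1, the separase that securin holds in check, by 0.36 (0.0041). Ttk, a checkpoint kinase, rose by 0.27 and Ube2c, a ubiquitin carrier of the anaphase promoting complex, by 0.22. The 3 that fell were Anapc10 by 0.88 and Anapc2 by 0.15, both subunits of that complex, and Kif2c, a microtubule depolymerase, by 0.54. On the deposited scale, where the median of all probe sets shifted by 0.14, Anapc2 was at 0.11. The calls of Kif2c and Anapc2 were lost in 6 and 8 of the 12 fits without a single rat.

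In pachytene spermatocytes 31 of the 71 rose and 8 fell, with a median of 0.21, where 25.6% of all genes rose and 19.1% fell. On the deposited scale, where the median of all probe sets shifted by -0.24, 15 rose. Espl1 rose by 0.62, Cenpe, a kinetochore motor, by 0.61, Incenp, the scaffold of the passenger complex, by 0.57, Kif20a by 0.48 and Spc25 by 0.42 (-0.022 on the deposited scale). Cdc25b, a phosphatase that activates Cdk1, fell by 0.79, Ccna2, cyclin A2, by 0.48, Pttg1ip, which binds securin, by 0.44 and Anapc5 by 0.38. Cyclin A2 and Cdc25b thus fell in the arrays in which Cdk1 rose, and Bub1 fell by 0.23 (0.071 under median centring) while its relative Bub1b rose. The age effect in round spermatids minus that in pachytene spermatocytes passed the threshold upward for 3 and downward for 12 of the 71, where 5.97% and 7.09% of all probe sets did.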

How the data were processed

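The values are log2 signals for 31099 probe sets on 24 rat arrays, as deposited by the authors. The method that summarised the probes was not given in the sources used here. RNA, per the labels' protocols, came from a Qiagen kit and was made into biotinylated cRNA. Gene symbols came from the platform annotation (20826 probe sets with exactly 1 symbol) and RefSeq names from assembly GRCr8, which held 14167 of 14217 genes. A gene with several probe sets was represented by its brightest. The number of arrays, 6 per group, limits the precision. Per the labels, each replicate is another rat, and they name no batch.

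The 57 control probe sets were left out, and 31042 were tested. For age, arrays were quantile normalized within each fraction. For fractions, an offset of 90.3 was added to linear pachytene values so that 45 spike-in controls matched (mean pachytene minus round spermatid difference -0.61 ± 0.77 before and 0.03 ± 0.17 after, SD over controls), and the 24 arrays were quantile normalized. Tests were limma 3.58.1 (lmFit, eBayes) in R 4.3.3, with a Benjamini-Hochberg adjusted p threshold of 0.05 over all probe sets. The difference of the age effect came from 4 group means on the common scale.

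Both fractions of a rat carry its number in the titles. Their deviations from the group means correlated at -0.07 to 0.36, and the own fraction was the best match for 2 of 12 rats. With rat as a block, the fractions gave 26208 calls and the difference of the age effect 3807, within 1.5 times of the fits without it. Relations within an age used exact permutation. The members, lists and tests were chosen with earlier results of these data known. Named genes are the 9 members, the 5 leading pachytene and 3 leading spermatid tracers, up to 5 division genes per direction with the smallest p past the threshold, and the 5 genes most like the members' mean. The r of single genes were singled out after their values were seen. Alternatives were other normalizations, filters, weights, covariates and left-out rats; those with spermatid tracers, the next 100 genes in rank or tracers with the 4 listed Sertoli markers replaced, and all 24 arrays normalized together for age, were chosen after seeing the data.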

Additional observations from a re-analysis of the deposited data

Results flagged for a closer look

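The age effect differed between the fractions in 5 division genes named above, by a limma test of the difference itself (age effect in round spermatids minus that in pachytene spermatocytes, common scale, adjusted over all probe sets). Of the 71 division genes 3 passed upward and 12 downward, where 5.97% and 7.09% of all probe sets did. The 5 named genes hold all 3 of the upward ones and only some of the 12. Incenp, the scaffold of the passenger complex, differed by -0.54 ± 0.10 (SE; adjusted p = 0.0012 in limma), with changes of -0.16 in round spermatids and 0.57 in pachytene spermatocytes. Anapc2 differed by -0.28 ± 0.04 (adjusted p = 0.00060 in limma), and fell in round spermatids while it rose in pachytene spermatocytes, by 0.16. On the deposited scale Anapc2 stood at 0.11 in round spermatids and -0.11 in pachytene spermatocytes. Its round spermatid call was kept in 4 of the 12 fits without a single rat. The differences were above 0 for Bub1 (0.47 ± 0.14, adjusted p = 0.031), Pttg1ip (0.47 ± 0.15, adjusted p = 0.045) and Cdc25b (0.25 ± 0.07, adjusted p = 0.020). These 3 fell in pachytene spermatocytes, and their round spermatid values, 0.22, -0.02 and -0.10, did not pass the test. Cdc25b was dim in round spermatids, at 7.13 in aged and 7.23 in young ones. The absent control ran from 6.68 to 7.23 in aged round spermatid arrays on the deposited scale, so a fall of Cdc25b there could hardly show. Changes within a fraction are on the fraction scale and do not subtract to the differences on the common scale. No array of the 9 division genes was flagged as a single outlier of its group in 36 Dixon tests, where chance gives about 1 in 20. That test looks for 1 array away from the rest and is not suited to arrays displaced together. The young pachytene arrays of rats 1, 10 and 11 are such a case. The 9 genes also move together within a group, so the 36 tests are not independent.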

How the results depend on the processing

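The changes of the 9 genes in round spermatids stayed above 0 under each of the alternatives run except the Sertoli marker covariate. There Aurka came to -0.26, Plk1 to -0.20 and Pttg1 to -0.071. With the spermatid tracer covariate Plk1 was at 0.01 ± 0.05 (SE), which leaves no rise, and Aurka at 0.16 ± 0.11. With single rats left out the changes of the 9 genes ran between 0.39 and 1.17. Calls in pachytene spermatocytes numbered 8 of 9 on the deposited scale (Bub1b lost, adjusted p = 0.065 in limma) and 7 of 9 with array weights (Aurkc and Pbk lost), where the changes ran between 0.18 and 0.56. In 56 cases a value that had passed no threshold changed sign, 20 of them differences of the age effect of the 9 genes and 8 of them single correlations. The number of arrays limits all of these values.

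Scaling moved the counts over all genes, in round spermatids and in pachytene spermatocytes, as follows. Quantile normalization called 5320 and 11643 probe sets, with 2670 and 6866 of them higher in aged cells and 2650 and 4777 lower. Median centring called 3546 in round spermatids (other division genes up: 16, against 25), and in pachytene spermatocytes 10625 higher and 4161 lower, with a median over all probe sets of 0.13. On the deposited scale the median of all probe sets shifted by 0.14 in round spermatids, with 17172 calls (16477 higher, 695 lower) and 49 division genes up, and by -0.24 in pachytene spermatocytes, with 19153 calls (1352 higher, 17801 lower) and 15 division genes up, against 31. On that scale Anapc2 stood at 0.11 in round spermatids, and in pachytene spermatocytes Anapc2 was at -0.11, Kif22 at -0.0089 and Spc25 at -0.022. Bub1 in pachytene spermatocytes was 0.071 under median centring. The difference of the age effect gave 11200 calls under median centring and 25120 on the deposited scale, against 4054. Averaging probe sets per gene gave 6634 calls in pachytene spermatocytes, and leaving out the 40% dimmest probe sets gave 16869 calls between fractions, both over fewer features.

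With the pachytene marker covariate 1 probe set was called in round spermatids and 0 division genes rose. With the Sertoli marker covariate 1 was called in round spermatids and 0 in pachytene spermatocytes, with 0 division genes up in either. The signs that then turned were those of Kif2c (0.38), Cenpe (-0.12) and Kif20a (-0.26) in round spermatids, and in pachytene spermatocytes Cdk1 (-0.068), Aurka (-0.13), Aurkc (-0.40), Bub1b (-0.32), Pbk (-0.34), Pttg1 (-0.15), Prc1 (-0.24), Cdca8 (-0.38), Anapc10 (0.48), Cdc25b (0.042) and Pttg1ip (0.28). With the spermatid tracer covariate 18 were called in round spermatids (0 division genes up; Kif2c 0.14) and 2545 in pachytene spermatocytes (13 up; Aurkc -0.021, Pbk -0.024, Ube2c 0.40). The cause was not tested. Without young rats 1, 10 and 11 there were 1705 calls in round spermatids (10 division genes up), 7651 in pachytene spermatocytes and 2627 for the difference of the age effect, and Ube2c stood at 0.26 in pachytene spermatocytes. With single rats left out, calls ranged from 3614 to 6551 in round spermatids, from 8949 to 12542 in pachytene spermatocytes and from 2315 (without aged rat 8) to 4833 for the difference; without aged rat 5 the last was 2445.

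The number in the labels is shared by young and aged rats that are different animals, and deviations of same-numbered arrays correlated at -0.58 to 0.02, so the numbers do not pair them. A replicate block over these shared numbers gave 0 calls in round spermatids and 368 in pachytene spermatocytes, with 0 of the other division genes up in either, and none of the 9 genes kept its pachytene call (adjusted p between 0.14 and 0.52 in limma).

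The median r with pachytene transcripts in aged round spermatids (0.49) was 0.80 with the pachytene markers, 0.60 with the 4 listed Sertoli markers replaced, 0.31 with the next 100 genes in rank, 0.33 under median centring, 0.14 on the deposited scale, -0.51 without the 2 farthest arrays, -0.78 with spermatid tracers and -0.57 with Sertoli markers. It ranged from 0.21 to 0.79 with single rats left out. In young round spermatids (-0.35) it was 0.51 with the pachytene markers, 0.0024 under median centring, 0.054 on the deposited scale and -0.92 with Sertoli markers, and ranged from -0.70 to 0.051 with single rats left out.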
